A study of Mus musculus with 7 samples.

Results

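The transcripts of 9 genes were followed in ovarian stroma that had lost the nuclear progesterone receptor (PGR). They encode other steroid receptors, membrane-associated progesterone-binding proteins and the enzymes that set the glucocorticoid supply inside the cell. The genes were *Esr1*, *Esr2*, *Nr3c1*, *Nr3c2*, *Pgrmc1*, *Pgrmc2*, *Paqr7*, *Hsd11b1* and *Hsd11b2*. They were chosen by name, with earlier results of these data known. They were 9 of 52230 annotated genes with transcripts in the files, and all 9 were among the 19233 genes with enough reads to be tested.

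The tissue was whole ovary from which granulosa cells had been released by puncturing follicles, and it held stromal, vascular, theca and immune cells. Females of the PRKO line were PGR +/+ (WT, n = 4 libraries, replicates 1 to 4) or PGR -/- (KO, n = 3 libraries, replicates 2 to 4). The null allele (Pgrtm1Bwo) removes both receptor isoforms in every tissue, so the KO is a model of whole-body loss and not of loss in the stroma alone. All mice were 21 to 27 days old, received 5 IU equine chorionic gonadotropin (eCG, named PMSG in the labels) and 44 h later 5 IU human chorionic gonadotropin (hCG), and were killed 8 h after hCG. Each library pooled tissue of 3 mice, so the spread between libraries is that between pools.

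Each library held 47.4 to 63.4 M assigned reads. *Pgr* itself was present at 4.34, 8.04, 5.43 and 4.22 TPM (a level per unit of transcript length, scaled to the same total in every library) in WT replicates 1 to 4 and at 1.54, 1.62 and 2.19 TPM in KO replicates 2 to 4, without overlap. All marker genes of granulosa cells, theca cells, fibroblasts, endothelium, leukocytes, oocytes, smooth muscle, surface epithelium and red blood cells were detected. Depletion was not complete: the 10 granulosa markers summed to 2566 to 3605 TPM in WT and 3117 to 4143 TPM in KO. In such bulk tissue, fewer cells of a type and less RNA per cell cannot be told apart.

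Steroid receptors of the nuclear family are ligand-activated transcription factors that wait in complexes with heat-shock chaperones or sit in the nucleus, and bind DNA once hormone is present. Oestradiol acts through ERα and ERβ, of which ERβ is the form typical of granulosa cells and ERα that of theca and stroma. Corticosterone acts through the glucocorticoid receptor and, where it is not inactivated, through the mineralocorticoid receptor. In the ovary, HSD11B1 regenerates active glucocorticoid from its inert 11-keto form and HSD11B2 does the reverse, and the balance shifts around ovulation. Progesterone can also act without PGR, through heme-binding membrane components of the MAPR family and through membrane progestin receptors of the PAQR family.

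Levels of the 9 genes spanned a wide range and kept the same order in both genotypes except for *Paqr7* and *Pgrmc2*. *Pgrmc1*, which encodes a heme-binding membrane protein, had by far the highest level at 217 ± 15.6 TPM in WT (SD, n = 4) and 208 ± 5.66 TPM in KO (SD, n = 3). *Nr3c2*, which encodes the mineralocorticoid receptor, had the lowest at 0.271 ± 0.0805 TPM in WT and 0.283 ± 0.011 TPM in KO. The WT level of *Pgrmc1* was above that of 96.8% of the genes tested and that of *Nr3c2* above 9.57%.

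Between these ends, the WT means descended from *Paqr7* over *Pgrmc2*, *Hsd11b2*, *Esr2*, *Nr3c1* and *Hsd11b1* to *Esr1*. *Paqr7* and *Pgrmc2* differed by 1.03-fold, their ranges overlapped in both genotypes, and only 3 of the 7 libraries followed the order of the means. *Pgrmc2* and *Hsd11b2* overlapped across the WT libraries, as did *Esr2* and *Nr3c1*, and *Hsd11b2* and *Esr2* overlapped across the KO libraries, although each of these pairs kept its order within all 7 libraries. The steps from *Pgrmc1* to *Paqr7* (4.28-fold), *Nr3c1* to *Hsd11b1* (1.43-fold), *Hsd11b1* to *Esr1* (2.3-fold) and *Esr1* to *Nr3c2* (16.2-fold) had no overlap in either genotype.

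**Figure D1:**
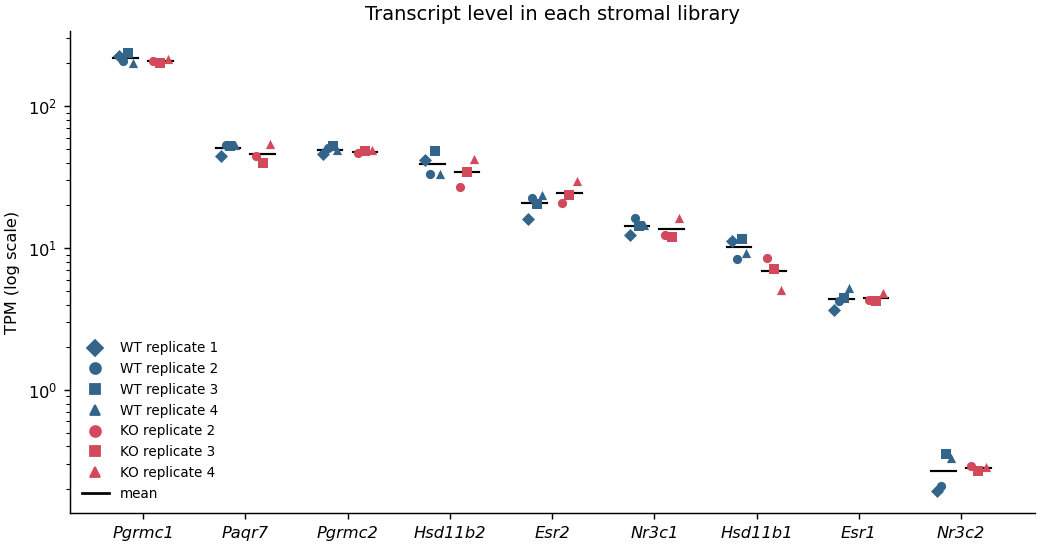
Level of each of the 9 genes in each library, in TPM on a log axis, ordered by the WT mean, with points for the 4 WT and 3 KO libraries. The genes fall from *Pgrmc1* at 202 to 236 TPM to *Nr3c2* at 0.194 to 0.351 TPM. On this axis the genotype means lie furthest apart for *Hsd11b1*, at 10.1 TPM in WT and 6.91 TPM in KO.

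None of the 9 genes was called different between KO and WT. A call required an adjusted p of 0.05 or less in edgeR's quasi-likelihood test together with a log2 fold change of 0.5 or more in either direction, and 0.0104% of all genes tested met it (2 genes). DESeq2 also called none of the 9, beside 0.754% of all genes. At an unadjusted p below 0.05 there were 2 of the 9 genes in edgeR and the same number in DESeq2, *Hsd11b1* and *Paqr7*, beside 8.94% of all genes in edgeR and 8.71% in DESeq2. Both had lower values in KO, a direction taken by 5.1% of all genes at that threshold, beside 3.84% with higher values.

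Log2 fold changes (KO minus WT) were negative for 7 genes and positive for 2, *Esr2* and *Nr3c2*, while 50.3% of all genes tested had negative values. Their median was -0.11, beside -0.001 for all genes, and their median size without regard to sign was 0.13, beside 0.1. The 95% interval held 0 for 7 of the 9. Apart from *Hsd11b1*, no interval reached further from 0 than 0.63 on the log2 scale. Each interval is for 1 gene alone and gives no joint limit for the other 8.

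**Figure D2:**
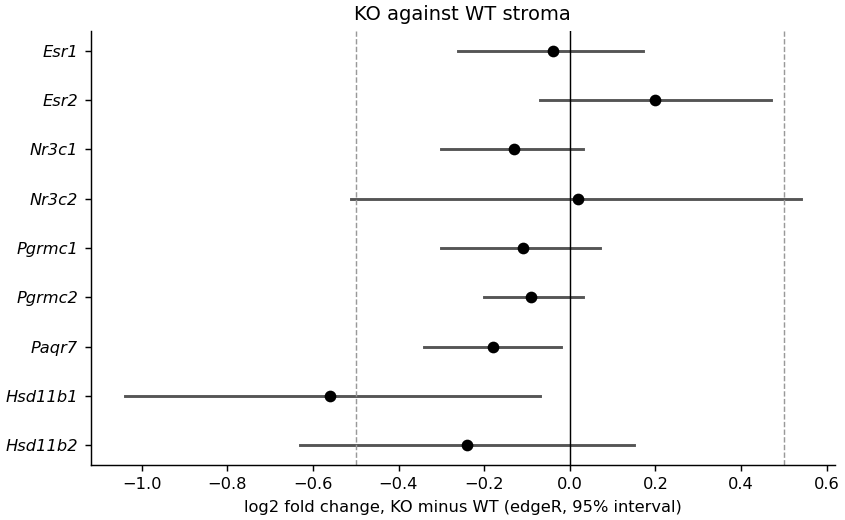
Log2 fold change, KO minus WT, of each of the 9 genes from edgeR, with bars for the 95% interval and dashed lines at the threshold of 0.5 in either direction. The intervals of *Hsd11b1* (-1.04 to -0.07) and *Paqr7* (-0.34 to -0.02) lie below 0 and the other 7 hold 0.

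*Esr1* (ENSMUSG00000019768, GRCm39 chr10:4561593-4955626, + strand), which encodes ERα, was at 3.67, 4.21, 4.45 and 5.26 TPM in WT replicates 1 to 4 and at 4.29, 4.24 and 4.81 TPM in KO replicates 2 to 4. All KO values lay inside the WT range. Its log2 fold change was -0.04 (SE 0.0942, interval -0.26 to 0.17, adjusted p = 0.931 in edgeR), or a change of -2.9% with an interval from -16.3% to 12.6%.

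*Esr2* (ENSMUSG00000021055, GRCm39 chr12:76167193-76224033, - strand), which encodes ERβ, was at 16.1, 22.4, 20.5 and 23.8 TPM in WT replicates 1 to 4. In KO replicates 2 to 4 it was at 20.6, 23.5 and 29.7 TPM, so that only KO replicate 4 lay above the WT range. The log2 fold change was 0.20 (SE 0.119, interval -0.07 to 0.47, adjusted p = 0.674 in edgeR), and the interval reached from a decrease of 4.9% to an increase of 38.3%. Leaving out 1 library moved the log2 fold change to between 0.08 (without KO replicate 4, unadjusted p = 0.509 in edgeR) and 0.29 (without KO replicate 2, unadjusted p = 0.0447), and it was 0.13 without WT replicate 1. The library with the highest *Esr2*, KO replicate 4, also had the highest summed granulosa markers (4143 TPM), while WT replicate 1, with the lowest *Esr2*, was the third highest by that sum (3486 TPM). Over all 10 markers, 5 log2 fold changes were positive and 5 negative, none was at 0 TPM in any library, and their part in the *Esr2* values was not tested.

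*Esr2* exceeded *Esr1* in every library, by 4.38 to 6.17 times in TPM. The log2 ratio of *Esr1* to *Esr2* was -2.13, -2.41, -2.2 and -2.18 in WT and -2.26, -2.47 and -2.63 in KO. The means were -2.23 ± 0.12 (SD, n = 4) and -2.45 ± 0.18 (SD, n = 3), a difference of -0.22, and the ranges overlapped.

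The deposited values are per transcript, so *Esr2* could be read by exon. An exon of 54 bases lies between other exons of the ligand-binding domain, adds 18 codons in frame, and is present in Esr2-202 and Esr2-205 but not in Esr2-201, Esr2-203 and Esr2-204. In rodents the form with this insertion is known to bind oestradiol more weakly. A neighbouring exon of 139 bases is missing from Esr2-204, and its length leaves a remainder of 1 on division by 3, so skipping it shifts the frame; that transcript is annotated as a target of nonsense-mediated decay. Both exons are printed from GRCm39 on the - strand, because their use separates the *Esr2* transcripts, with exon bases in capitals and 20 flanking intron bases on each side in lower case (chr12:76186972-76187025 and chr12:76188109-76188247).
Esr2 54-base exon: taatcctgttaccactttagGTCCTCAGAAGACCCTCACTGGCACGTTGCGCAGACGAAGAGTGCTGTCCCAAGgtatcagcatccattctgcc
Esr2 139-base exon: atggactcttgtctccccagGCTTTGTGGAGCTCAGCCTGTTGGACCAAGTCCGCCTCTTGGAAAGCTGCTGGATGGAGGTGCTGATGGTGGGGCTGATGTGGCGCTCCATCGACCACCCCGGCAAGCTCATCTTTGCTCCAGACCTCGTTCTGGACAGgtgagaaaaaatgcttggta
Both exons are flanked by ag before their first base and gt after their last.

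Transcripts that lack the 54-base exon and keep the 139-base exon made up a larger share of *Esr2* TPM in KO. The share was 44.0%, 49.9%, 43.5% and 42.8% in WT replicates 1 to 4 and 56.4%, 51.5% and 59.5% in KO replicates 2 to 4, or 45.0% ± 3.26 (SD, n = 4) against 55.8% ± 4.03 (SD, n = 3). These ranges did not overlap. The grouping was chosen after the values were seen, so the difference of 10.7 percentage points is a description, and it stayed between 8.9 and 12.9 points without any 1 library. It rests in part on Esr2-201, which was listed at 0 in 6 libraries and at 4.29 TPM in KO replicate 4. Esr2-203 alone made up 42.8% to 49.9% in WT and 45.0% to 56.4% in KO, which overlap.

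In level, Esr2-203 was at 7.08, 11.2, 8.9 and 10.2 TPM in WT and at 11.6, 12.1 and 13.4 TPM in KO, every KO library above every WT library. Its log2 fold change was 0.36 (SE 0.127, interval 0.06 to 0.66, unadjusted p = 0.024, adjusted p = 1.0 in edgeR over 55145 transcripts), and it was not called. An unadjusted p below 0.05 was reached by 4.48% of all transcripts tested.

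Transcripts with the 54-base exon made up 49.7%, 34.8%, 50.3% and 50.9% of *Esr2* in WT and 34.2%, 41.7% and 34.8% in KO. WT replicate 2 lay with the KO libraries, so the groups overlapped. In level, Esr2-202 was at 7.98, 7.78, 10.3 and 12.1 TPM in WT and at 7.06, 9.8 and 10.3 TPM in KO (log2 fold change -0.13, SE 0.194, unadjusted p = 0.521 in edgeR). Esr2-204, without the 139-base exon, held 6.31%, 15.4%, 6.27% and 6.28% in WT and 9.39%, 6.84% and 5.69% in KO. Every annotated transcript with the 54-base exon starts at the outer of 2 first exons and Esr2-203 starts at the inner one, 9544 bases away, so between Esr2-202 and Esr2-203 use of the exon and use of the start cannot be told apart. The files hold no measure of the uncertainty with which Salmon assigned reads among these transcripts.

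**Figure D3:**
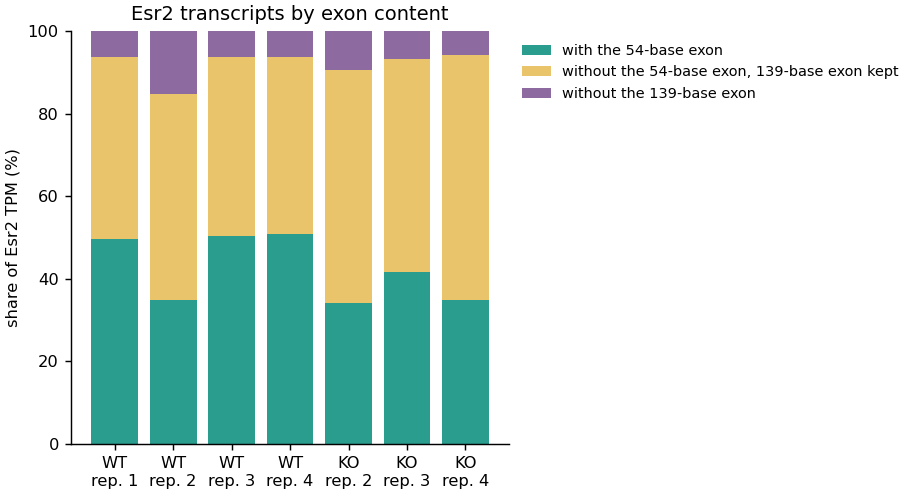
Share of *Esr2* TPM in percent in each of the 7 libraries for transcripts with the 54-base exon, transcripts without it that keep the 139-base exon, and transcripts without the 139-base exon. Transcripts without the 54-base exon that keep the 139-base exon lie at 42.8% to 49.9% in WT and 51.5% to 59.5% in KO, while WT replicate 2 stands apart in the other groups of transcripts.

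The receptors for corticosteroids were far apart in level. *Nr3c1* (ENSMUSG00000024431, GRCm39 chr18:39543598-39652474, - strand), which encodes the glucocorticoid receptor, was at 12.4, 16.3, 14.3 and 14.6 TPM in WT and at 12.4, 12 and 16.4 TPM in KO. KO replicate 4 was just above the highest WT library and the other KO libraries were at or below the lowest. The log2 fold change was -0.13 (SE 0.0726, interval -0.3 to 0.03, adjusted p = 0.645 in edgeR), an interval from a decrease of 18.5% to an increase of 2.4%. Transcripts that insert 3 bases, and so 1 codon, in the DNA-binding domain made up 4.82% to 8.79% of *Nr3c1* TPM over the 7 libraries, with overlap of the genotypes. Most of this share was Nr3c1-208 (4.73% to 7.77%), which is annotated with only 488 codons. Nr3c1-202, with 793 codons, held at most 1.72%.

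*Nr3c2* (ENSMUSG00000031618, GRCm39 chr8:77625576-77971863, + strand) was at 0.194, 0.209, 0.351 and 0.329 TPM in WT and at 0.29, 0.27 and 0.288 TPM in KO, from 38 to 75 reads per library. The KO libraries lay in the middle of the WT range. At this depth the interval of the log2 fold change of 0.02 (SE 0.231, adjusted p = 0.992 in edgeR) ran from -0.51 to 0.54, so it held differences of either direction. *Nr3c1* exceeded *Nr3c2* in every library by 40.7 to 77.8 times in TPM, and the log2 ratio was 5.78 ± 0.44 in WT (SD, n = 4) and 5.58 ± 0.22 in KO (SD, n = 3), with overlap.

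Neither gene of the heme-binding membrane components was called. *Pgrmc1* (ENSMUSG00000006373, GRCm39 chrX:35861524-35869737, + strand) was at 224, 208, 236 and 202 TPM in WT and at 208, 202 and 213 TPM in KO, and its log2 fold change was -0.11 (SE 0.0818, interval -0.3 to 0.07, adjusted p = 0.742 in edgeR). All KO values lay inside the WT range. With 10907 to 14793 reads per library, the interval ran from a decrease of 18.6% to an increase of 5.3%.

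*Pgrmc2* (ENSMUSG00000049940, GRCm39 chr3:41017138-41037481, - strand), the paralog of *Pgrmc1*, was at 45.8, 50.5, 52.4 and 49.0 TPM in WT and at 46.6, 47.9 and 48.8 TPM in KO, which overlap. As CPM (reads of the gene scaled to library size with TMM factors, not per length), it was at 92.2, 86.4, 93.8 and 90.3 in WT and at 85.8, 86.3 and 84.3 in KO. On that scale all 3 KO libraries were below all 4 WT libraries, and KO replicate 3 and WT replicate 2 nearly touched. It was the only 1 of the 9 genes without overlap in CPM, beside 9.05% of all genes tested (5.12% with KO lower and 3.93% with KO higher). The log2 fold change was -0.09 (SE 0.0499, interval -0.2 to 0.03, adjusted p = 0.66 in edgeR). The log2 ratio of *Pgrmc1* to *Pgrmc2* was 2.14 ± 0.12 in WT (SD, n = 4) and 2.12 ± 0.04 in KO (SD, n = 3), so *Pgrmc1* stood 4.11 to 4.89 times above its paralog.

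*Paqr7* (ENSMUSG00000037348, GRCm39 chr4:134223704-134237546, + strand), which encodes the membrane progestin receptor mPRα, was at 70.5, 79.0, 76.3 and 77.0 CPM in WT and at 66.3, 61.0 and 73.1 CPM in KO. Of the KO libraries only replicate 4 reached into the WT range, where it lay above WT replicate 1. In TPM the same libraries held 44.5, 53.4, 52.3 and 53.0 against 44.8, 39.8 and 54.2, with KO replicate 4 then the highest of all. The log2 fold change was -0.18 (SE 0.072, interval -0.34 to -0.02, unadjusted p = 0.0341, adjusted p = 0.508 in edgeR and 0.476 in DESeq2). Leaving out 1 library moved it to between -0.25 (without KO replicate 4, unadjusted p = 0.00741 in edgeR) and -0.11 (without KO replicate 3, unadjusted p = 0.166), and the unadjusted p was below 0.05 in 2 of these 7 fits. Its leading transcript, Paqr7-201, was at 43.0 ± 3.75 TPM in WT (SD, n = 4) and 37.7 ± 4.74 TPM in KO (SD, n = 3), with a log2 fold change of -0.24 (SE 0.0802, unadjusted p = 0.0206, adjusted p = 1.0 in edgeR).

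*Hsd11b1* (ENSMUSG00000016194, GRCm39 chr1:192903918-192946489, - strand), the reductase that regenerates corticosterone, had the largest fold change of the 9 genes. It was at 10.2, 6.74, 9.31 and 7.59 CPM in WT replicates 1 to 4 and at 7.28, 5.98 and 4.0 CPM in KO replicates 2 to 4. The groups overlapped, since KO replicate 2 lay above WT replicate 2. In TPM the values were 11.2, 8.39, 11.5 and 9.29 against 8.48, 7.13 and 5.1, with the same overlap. The log2 fold change was -0.56 (SE 0.214, interval -1.04 to -0.07), a decrease of 32% whose interval ran from 51.5% to 4.7%. Unadjusted p was 0.0294 in edgeR and 0.00942 in DESeq2, and adjusted p was 0.489 and 0.231. Without any 1 library the log2 fold change ran from -0.77 (without KO replicate 2) to -0.35 (without KO replicate 4), and the unadjusted p was below 0.05 in 3 of these 7 fits. By unadjusted p the gene ranked 1154 among all genes tested.

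Summed markers of theca and smooth muscle cells were lower in KO too, and none of these markers was called in edgeR. DESeq2 called 2 of the 6 smooth muscle markers, beside 0.754% of all genes. They were *Des* and *Cnn1* (adjusted p = 0.000317 and 0.00211 in DESeq2), named after their values were seen. All 5 theca markers had negative log2 fold changes (median -0.49) and summed to 1976 to 2156 TPM in WT and 1246 to 1628 TPM in KO. All 6 smooth muscle markers were negative as well (median -0.37), with sums of 1482 to 1761 TPM in WT and 1081 to 1430 TPM in KO. Neither sum overlapped between genotypes, but in TPM each of the 5 theca markers taken singly did. WT replicate 4 had the lowest *Insl3* of all libraries (70.2 TPM) and the highest *Star* (1404 TPM), named after their values were seen. An unadjusted p below 0.05 in edgeR was reached by 1 theca and 4 smooth muscle markers, beside 8.94% of all genes. The 7 surface epithelium markers were all negative too (median -0.44), but their sums of 26.1 to 53.2 TPM in WT and 23.7 to 37.1 TPM in KO overlapped. Fibroblast (6 of 7) and endothelial markers (5 of 6) were mostly negative. In the other direction, all 5 oocyte markers (median 0.28) and all 5 red blood cell markers (median 0.2) were positive. The sums of these further lists overlapped. No marker of these lists was at 0, and their part in the *Hsd11b1* values was not tested. The KO library with the lowest *Hsd11b1*, replicate 4, had the highest theca sum of the 3 KO libraries.

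*Hsd11b1* was read from a distal and a proximal start, 21552 bases apart, and both leading transcripts encode 292 codons. The distance and the codons are those of GENCODE M39, in which these transcripts have 1540 and 1647 bases, against 1355 and 1623 bases in the deposited files, so the starts of the quantified transcripts may lie elsewhere. The distal transcript (Hsd11b1-205) was at 7.28, 4.44, 4.95 and 6.48 TPM in WT and at 5.83, 4.85 and 3.6 TPM in KO (log2 fold change -0.33, SE 0.278, unadjusted p = 0.268 in edgeR). The proximal transcript (Hsd11b1-201) was at 2.95, 2.06, 3.39 and 2.45 TPM in WT and at 2.59, 2.17 and 1.47 TPM in KO (log2 fold change -0.43, SE 0.284, unadjusted p = 0.174 in edgeR). Both overlapped between genotypes. A further transcript, Hsd11b1-203, was listed at 0.876, 1.85 and 3.12 TPM in WT replicates 1 to 3 and at 0 in WT replicate 4 and all KO libraries. Its unadjusted p was 0.0174 and its adjusted p 1.0 in edgeR, and without a measure of Salmon's assignment error the zeros cannot be read as absence. Of 49 transcripts of the 9 genes, 21 passed the filter and none was called in edgeR or DESeq2, beside 0.00725% of all transcripts in edgeR (4 transcripts). An unadjusted p below 0.05 in edgeR was found for 3 of the 21, Hsd11b1-203, Paqr7-201 and Esr2-203, beside 4.48% of all transcripts tested.

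*Hsd11b2* (ENSMUSG00000031891, GRCm39 chr8:106245369-106250620, + strand), the dehydrogenase that inactivates corticosterone, was at 41.9, 33.1, 48.3 and 33.1 TPM in WT and at 26.8, 34.3 and 42.3 TPM in KO. Only KO replicate 2 lay below the WT range. Its log2 fold change was -0.24 (SE 0.171, interval -0.63 to 0.15, adjusted p = 0.738 in edgeR).

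Transcripts of the inactivating enzyme exceeded those of the activating one in all 7 libraries, while enzyme amount and activity were not measured. The ratio of *Hsd11b2* to *Hsd11b1* in TPM was 3.73, 3.95, 4.21 and 3.56 in WT replicates 1 to 4 and 3.16, 4.8 and 8.3 in KO replicates 2 to 4. WT values were close together and the KO values spread to both sides of them. As the log2 ratio of *Hsd11b1* to *Hsd11b2*, the means were -1.95 ± 0.1 (SD, n = 4) and -2.33 ± 0.7 (SD, n = 3), with overlap. The difference of this transcript ratio between genotypes was within the spread of the KO libraries.

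**Figure D4:**
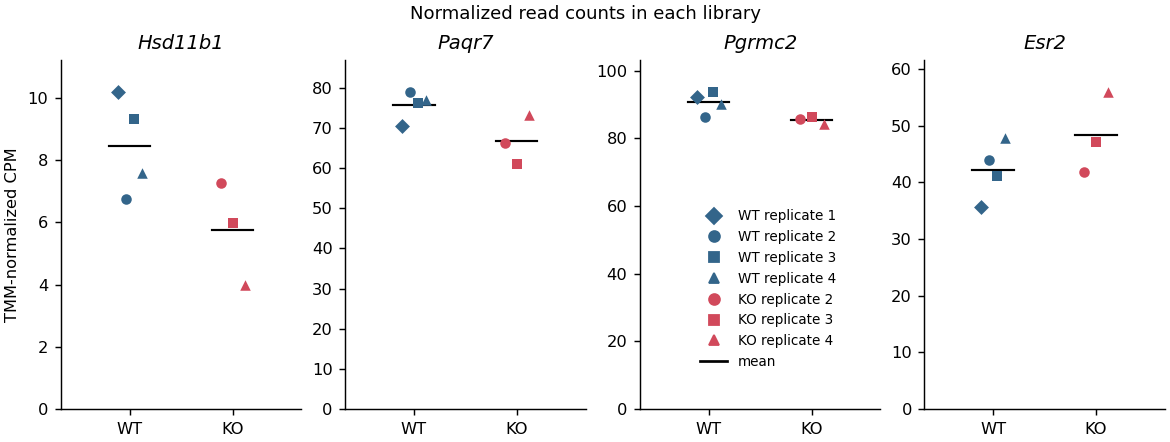
TMM-normalized CPM of *Hsd11b1*, *Paqr7*, *Pgrmc2* and *Esr2* in each library, with points for single libraries and lines for the mean of each genotype. *Hsd11b1* is lowest at 4.0 CPM in KO replicate 4, *Pgrmc2* is the gene without overlap, and *Paqr7* and *Esr2* overlap between genotypes.

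Genes around the 9 were read in lists of receptors, cofactors and hormone-induced genes. Of 77 such genes none was called in edgeR, 17 had an unadjusted p below 0.05 (22.1%, beside 8.94% of all genes), and of these 11 were lower and 6 higher in KO. DESeq2 called 6, beside 0.754% of all genes. The lists were chosen with earlier results of these data known. They hold *Pgr*, the targeted gene, and *Zbtb16*, which the paper reported as dependent on PGR in granulosa cells. The counts are therefore a description and do not test the lists. The 8.94% of all genes also stands beside the counts of each list below.

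The list of other steroid receptors held 5 genes: *Pgr*, *Gper1* and the oestrogen-related orphan receptor genes *Esrra*, *Esrrb* and *Esrrg*. Among them, 1 had an unadjusted p below 0.05, *Pgr* itself, which is the targeted gene (log2 fold change -1.72, SE 0.202, adjusted p = 0.0544 in edgeR and 1.2e-14 in DESeq2). *Gper1*, which encodes a membrane receptor for oestrogen, was at 0.777 ± 0.237 TPM in WT and 1.03 ± 0.169 TPM in KO (log2 fold change 0.38, SE 0.231, adjusted p = 0.675 in edgeR). No receptor of this list was called higher in KO in edgeR or DESeq2.

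Of 7 genes listed as other membrane progestin receptors and MAPR genes, none had an unadjusted p below 0.05, and their median log2 fold change was -0.03. This list also holds *Serbp1*, which belongs to neither family. The remaining PAQR receptors were much lower than *Paqr7*, with WT means of 0.539 TPM for *Paqr5*, 10.2 TPM for *Paqr6*, 5.01 TPM for *Paqr8* and 0.653 TPM for *Paqr9*. Their log2 fold changes were -0.44 (SE 0.208), 0.00 (SE 0.146), -0.10 (SE 0.0837) and 0.25 (SE 0.158). *Nenf*, a secreted MAPR protein gene, was at 137 ± 19 TPM in WT and 135 ± 7.02 TPM in KO, and *Cyb5d2* was at 4.25 ± 0.301 TPM and 4.24 ± 0.239 TPM.

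The 5 genes of glucocorticoid supply included 2 with an unadjusted p below 0.05, both lower in KO. *H6pd*, which encodes the lumenal enzyme that supplies NADPH to HSD11B1, was at 105, 112, 104 and 91.1 TPM in WT and at 94.3, 86.3 and 90.2 TPM in KO (log2 fold change -0.25, SE 0.0909, unadjusted p = 0.0243, adjusted p = 0.468 in edgeR). KO replicate 2 lay above WT replicate 4. *Abcb1b*, which encodes an efflux pump that exports steroids, was at 142, 155, 153 and 174 TPM in WT and at 124, 138 and 137 TPM in KO, without overlap (log2 fold change -0.32, SE 0.07, adjusted p = 0.237 in edgeR). DESeq2 gave *Abcb1b* an adjusted p of 0.00673, but its fold change was below the threshold.

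Of 18 glucocorticoid-induced genes, 5 had an unadjusted p below 0.05 with KO lower and 2 with KO higher, beside 5.1% and 3.84% of all genes. The median log2 fold change of the 18 was -0.14. *Tsc22d3*, which encodes the glucocorticoid-induced leucine zipper protein, was at 45.2, 53.7, 52.6 and 59.9 TPM in WT and at 38.1, 41.3 and 43.4 TPM in KO (log2 fold change -0.42, SE 0.0704, adjusted p = 0.146 in edgeR and 0.000449 in DESeq2). *Zbtb16*, a zinc finger repressor gene that progesterone also induces, was at 3.8, 8.54, 5.1 and 7.55 TPM in WT and at 1.8, 2.55 and 2.93 TPM in KO (log2 fold change -1.45, SE 0.25, adjusted p = 0.16 in edgeR and 9.46e-07 in DESeq2). *Glul*, which encodes glutamine synthetase, was at 251 ± 40.6 TPM in WT and 171 ± 7.78 TPM in KO (log2 fold change -0.59, SE 0.0992, adjusted p = 0.141 in edgeR and 2.47e-05 in DESeq2). *Tsc22d3*, *Zbtb16* and *Glul* did not overlap between genotypes in TPM or CPM, nor did *Mt1* and *Mt2*, named after their values were seen. In CPM this held with KO lower for 5.12% of all genes tested. The 2 genes with KO higher were *Dusp1* and *Cdkn1a*, named after their values were seen. Their log2 fold changes were 0.29 (SE 0.126, unadjusted p = 0.0464 in edgeR) and 0.40 (SE 0.173, unadjusted p = 0.0478 in edgeR), and both overlapped.

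DESeq2 called 4 of these 18 genes, beside 0.754% of all genes. They were *Glul*, *Zbtb16* and the metallothionein genes *Mt1* and *Mt2* (log2 fold changes -0.55 and -0.84 in edgeR), the last named after their values were seen. *Fkbp5*, *Sgk1* and *Per1* had no unadjusted p below 0.05 in edgeR, while *Sgk1* had one of 0.044 in DESeq2. *Fkbp5*, an inhibitor of receptor activation, was at 215 ± 67.7 TPM in WT and 177 ± 42.3 TPM in KO (log2 fold change -0.34, SE 0.2, adjusted p = 0.664 in edgeR). *Sgk1*, a kinase gene, had a log2 fold change of -0.28 (SE 0.131, adjusted p = 0.568 in edgeR), and *Per1*, a clock gene, one of 0.09 (SE 0.0922, adjusted p = 0.827 in edgeR).

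Of 14 receptor chaperones, 3 had an unadjusted p below 0.05, all higher in KO, and the median log2 fold change was 0.03. *Hspa8*, which encodes the constitutive HSP70, was at 1620.2, 1709, 1784 and 1812 TPM in WT and at 1947, 2199 and 2089.5 TPM in KO, without overlap (log2 fold change 0.41, SE 0.0801, adjusted p = 0.19 in edgeR and 3.77e-05 in DESeq2). *Dnajb1*, its co-chaperone, had a log2 fold change of 0.73 (SE 0.231, adjusted p = 0.386 in edgeR), and *Hsp90aa1*, which encodes the HSP90 that holds receptors ready for hormone, one of 0.28 (SE 0.102, adjusted p = 0.452 in edgeR). *Fkbp4*, the immunophilin that favours receptor activity, was at 217 ± 29.6 TPM in WT and 244 ± 28.1 TPM in KO (log2 fold change 0.12, adjusted p = 0.72 in edgeR). Of 18 receptor coregulators, none had an unadjusted p below 0.05, and their median log2 fold change was 0.03.

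Of 12 oestrogen-induced genes, 4 had an unadjusted p below 0.05 with KO lower and 1 with KO higher, and the median log2 fold change was 0.04. The gene with KO higher was *Cxcl12*, without overlap and named after its values were seen (log2 fold change 0.35, SE 0.0908, unadjusted p = 0.00375 in edgeR). Its adjusted p was 0.314 in edgeR and 0.0319 in DESeq2, and its fold change was below the threshold. *Pgr* belongs to this list too. *Susd3*, an oestrogen-responsive gene of the cell surface, was at 74.7, 85.3, 86.9 and 88.6 TPM in WT and at 52.5, 53.1 and 65.5 TPM in KO, without overlap (log2 fold change -0.60, SE 0.0664, adjusted p = 0.0544 in edgeR and 3.3e-10 in DESeq2). *Stc2*, which encodes the secreted stanniocalcin, was at 7.75 ± 0.276 TPM in WT and 6.03 ± 0.509 TPM in KO (log2 fold change -0.41, SE 0.0868, adjusted p = 0.22 in edgeR). *Greb1*, a classic target of ERα, was at 218 ± 17.1 TPM in WT and 237 ± 51.4 TPM in KO (log2 fold change 0.04, adjusted p = 0.941 in edgeR).

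**Figure D5:**
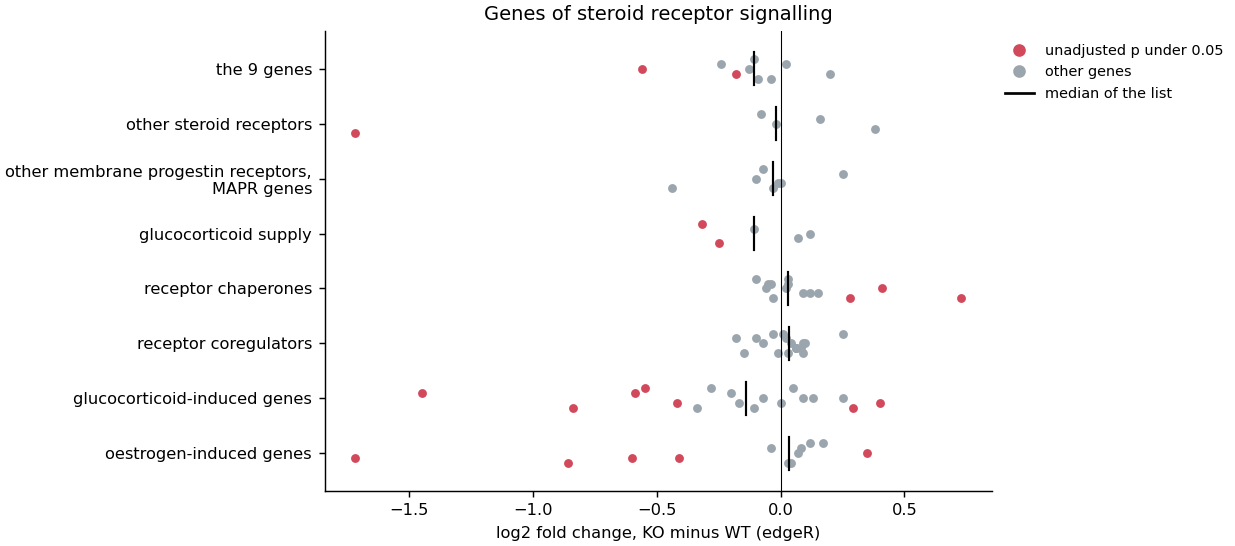
Log2 fold change, KO minus WT, of the 9 genes and of the genes in 7 lists around them, 1 point per gene, with red for an unadjusted p below 0.05 and a bar for the median of each list. Medians lie between -0.14 and 0.04, and *Pgr*, at -1.72, appears in the lists of steroid receptors and of oestrogen-induced genes.

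Patterns over the 7 libraries were compared with those of 13161 protein-coding genes, as a description without a test. Log2 CPM of *Hsd11b1* was most like that of *Cox6a1* (Pearson's r = 0.974, Spearman's rho = 1.0), *Paqr7* like *Lats2* (0.994 and 1.0), *Esr2* like *Nova1* (0.982 and 0.964) and *Pgrmc2* like *Timm22* (0.981 and 0.964). *Esr1* was most like *Babam1* (0.992 and 1.0), *Nr3c1* like *Smurf2* (0.99 and 0.964), *Nr3c2* like *Vps8* (0.984 and 0.964), *Pgrmc1* like *Csgalnact2* (0.991 and 0.893) and *Hsd11b2* like *Htra1* (0.985 and 0.964). With 7 libraries that share genotype, depth and tissue composition, 11 to 141 genes reached an r of 0.9 with each of the 9, and single names are therefore not particular to them.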

How the data were processed

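Stromal ovarian RNA was sequenced in 7 libraries (4 WT, 3 KO), grouped by the genotype in the labels. The authors deposited Salmon's expected counts per transcript (version not given in the sources used here), quantified from stranded paired-end reads of 100 bases with GENCODE M26 on GRCm39, and the TPM values that Salmon scaled by effective length and library total. Gene names and coordinates were taken from GENCODE M39, which matched 98.8% of the transcripts. Expected counts were summed per gene and rounded.

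All 19233 genes passing filterByExpr were fitted with edgeR 4.0.16 (TMM, glmQLFit, glmQLFTest, two-sided, R 4.3.3), and 55145 transcripts were fitted in the same way. Called genes had a Benjamini-Hochberg adjusted p of 0.05 or less together with a log2 fold change of 0.5 or more in either direction. DESeq2 1.42.0 and limma 3.58.1 were alternatives, as were other normalizations and filters, a replicate block and leaving out each library. The code was tested on simulated data.

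The 9 genes and the lists around them were chosen with earlier results of these data known. Named genes were the 9, a fixed set of receptors, cofactors and hormone-induced genes from these lists, and in each list at most 3 genes of lowest p among those with an unadjusted p below 0.05. The gene most like each of the 9 was also named, as were genes marked as named after their values were seen. *Esrra*, *Esrrb*, *Esrrg* and *Serbp1* were named only to give the content of their lists. Isoform groups were formed after the values were seen. Nearest libraries differed by 24.11 per degree of freedom in a chi-square test of their counts, so none was a duplicate. A gene of the list of other steroid receptors is not reported here and was left out of the list.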

Additional observations from a re-analysis of the deposited data

Results flagged for a closer look

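Values of 51 quantities were compared among the 4 WT libraries, and in 5 of them 1 library stood apart by a gap that took up more of the whole range than Dixon's 95% limit allows, which about 1 in 20 such groups passes by chance. WT replicate 1 had 44.5 TPM of *Paqr7*, with the nearest other WT library at 52.3 TPM (gap over range 0.884). WT replicate 2 had 41.3 TPM of *Per1*, with the nearest at 35.2 TPM (0.855). The same library had 34.8% of *Esr2* TPM in transcripts with the 54-base exon, with the nearest at 49.7% (0.923), and 15.4% in transcripts without the 139-base exon, with the nearest at 6.31% (0.996). In WT replicate 3, the leading transcript of *Nr3c2*, Nr3c2-203, held 62.0% of the gene's TPM, and it held 100% in the other WT libraries (1.0), from few reads.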

How the results depend on the processing

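None of the 9 genes was called under any alternative. Of 144 log2 fold changes of the 9 genes under alternatives, 5 reversed and none passed the adjusted threshold, and 7 of the 9 genes kept their sign throughout. *Esr1* became 0.05 without WT replicate 4. *Nr3c2* became -0.06 with a replicate block, -0.08 and -0.1 without WT replicates 1 and 2, and -0.03 without KO replicate 2, within a range of -0.1 to 0.16. The number of genes among the 9 with an unadjusted p below 0.05, 2 in edgeR, was 1 with length offsets (*Hsd11b1*), 1 with the replicate block (*Paqr7*) and 0 to 2 without single libraries, with 0 without WT replicate 3 or KO replicate 3. The number of all genes called, 2, was 145 in DESeq2, 36 without a filter, 6 with at least 10 counts in every library, 26 with the replicate block, 7 with legacy=FALSE and 1 to 4 without single libraries. Called transcripts, 4, were 295 in DESeq2, 2 with at least 10 counts in every library, 0 with the block and 0 to 5 without single libraries. Called genes in the lists, 0, were 6 in DESeq2, 4 without a filter, 2 with at least 10 counts, 1 with protein-coding genes only, 1 with the block, 2 with legacy=FALSE and 0 to 1 without single libraries. Of 23 other genes named by rule from the lists, 18 kept their sign. Without single libraries *Nenf* from -0.13 to 0.03, *Per1* from -0.01 to 0.17, *Greb1* from -0.1 to 0.15 and Esr2-202 from -0.23 to 0.01. *Paqr6* reached -0.01 with length offsets, -0.04 with the block and -0.06 to 0.14 without single libraries (-0.0019 without WT replicate 2), *Nenf* 0.03 with the block and without WT replicate 1, *Cyb5d2* 0.01 without WT replicate 4, *Per1* -0.01 without KO replicate 2 and *Greb1* -0.1 without KO replicate 4. Esr2-202 reached 0.01 without WT replicate 4 and 0.0034 without KO replicate 2. The share of *Esr2* without the 139-base exon, 1.3 percentage points lower in KO, was 1.0 higher without WT replicate 2. Deviations of same-numbered libraries from their genotype means were weakly correlated (r = -0.013, 0.106 and 0.085 for KO replicates 2, 3 and 4). For KO replicates 3 and 4 this was the highest r with any WT library. Such small values do not settle whether the numbers pair the libraries. With the replicate block, *Hsd11b1* had a log2 fold change of -0.48 (unadjusted p = 0.056, adjusted p = 0.449 in edgeR). The cause of these shifts was not tested.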
